A study of Homo sapiens with 9 samples.

Results

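The SOX genes encode transcription factors that carry a DNA-binding domain of the HMG-box type. The 10 members described here are SOX1, SOX2, SOX3, SOX4, SOX5, SOX6, SOX9, SOX11, SOX13 and SOX21, taken by gene symbol from a table of 46427 genes. The rule uses no measured value, but the members were chosen with earlier results of these data known. Other SOX genes are described at the end. Messenger RNA was sequenced in 3 groups of 3 libraries, all from H9, an established line of human embryonic stem cells (hESC). The BafA1 group consisted of neural progenitors (NPC), taken on day 11 of differentiation towards midbrain dopamine neurons, that had been exposed to bafilomycin A1, an inhibitor of the vacuolar proton pump that blocks lysosomal acidification and autophagic clearance. The dose was 10 nM and an exposure lasted 6 h, and of the several exposure windows in the protocol the labels do not say which applied to the sequenced cells. The control group was untreated NPC of the same day and differentiation, and the hESC group was undifferentiated, untreated cells. Both NPC groups had received LDN193189 at 200 nM and SB431542 at 10 µM, inhibitors of BMP and TGF-beta receptors, with purmorphamine at 2 µM, an activator of Hedgehog signalling, and CHIR99021 at 3 µM, an inhibitor of GSK3. All cells came from a single line, the replicates are named biological without word on separate cultures, and p-values measure the spread between these libraries, which may be in part technical. The comparison of BafA1 NPC with control NPC asks what exposure to bafilomycin A1 did during neural differentiation. In this design, block of autophagy cannot be told apart from other effects of the pump inhibitor. The comparison of control NPC with hESC gives the change up to day 11 of differentiation. In it, direct effects of the agents that both NPC groups had received cannot be told apart from the change of cell state.

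SOX proteins bind short AT-rich motifs in the minor groove, bend the DNA and mostly act beside a partner factor. The SOXB1 proteins SOX1, SOX2 and SOX3 keep neural progenitors undifferentiated, and SOX2 with POU5F1 also maintains pluripotent cells, whereas the SOXB2 protein SOX21 opposes SOXB1 targets. The SOXC proteins SOX4 and SOX11 act in neuronal differentiation, the SOXD proteins SOX5, SOX6 and SOX13 have no transactivation domain of their own and act as cofactors, and the SOXE protein SOX9 works in glial, neural stem and cartilage cells.

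The library totals were 43124679 to 69703791 counts in BafA1 NPC, 49479733 to 56054194 in control NPC and 55706968 to 66544642 in hESC. The neural progenitor markers CDH2 and NES averaged 681 ± 89.4 and 674 ± 113 in BafA1 NPC, 554 ± 60.7 and 613 ± 30.2 in control NPC, and 42.3 ± 0.782 and 259 ± 22.2 in hESC (TMM-scaled counts per library size, CPM, mean ± SD, n = 3). POU5F1, which defines pluripotent cells, had 1 count in all BafA1 libraries together and none in control NPC, against 2284 ± 139 CPM in hESC. PAX6, a marker of dorsal and forebrain progenitors, was scarcely detected, at 1.04 ± 0.515 CPM in BafA1 NPC, 0.380 ± 0.163 in control NPC and 0 in hESC. All 10 members passed the filter on low counts. In bulk RNA, fewer cells of a type and less RNA per cell cannot be told apart.

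The sequences just upstream of 4 members are shown. SOX1 and SOX3 were taken for their opposite directions under BafA1, though the SOX1 call was lost in 4 of 21 alternatives. SOX2 was taken as the member with the highest FPKM. SOX21 was taken as a switch between hESC and NPC with no call under BafA1. SOX9 and SOX11 had no promoter entry. The windows are 250 bases upstream of the annotated start, 5′ to 3′ on the gene's strand, from RefSeq on GRCh38.p14. The SOX1 window is chr13:112066899-112067148 on the plus strand, that of SOX2 is chr3:181711675-181711924 on the plus strand, that of SOX3 is chrX:140505070-140505319 on the minus strand, and that of SOX21 is chr13:94712546-94712795 on the minus strand. Capitals mark exact matches, on either strand, to a set of short motifs. The set was the SOX motif ACAAAG with its variant form ACAATG, the octamer of POU factors (ATGCAAAT), the CCAAT box, the GC box written GGGCGG, and lastly the TATA box as TATAAA. No match in these windows overlaps another.
SOX1: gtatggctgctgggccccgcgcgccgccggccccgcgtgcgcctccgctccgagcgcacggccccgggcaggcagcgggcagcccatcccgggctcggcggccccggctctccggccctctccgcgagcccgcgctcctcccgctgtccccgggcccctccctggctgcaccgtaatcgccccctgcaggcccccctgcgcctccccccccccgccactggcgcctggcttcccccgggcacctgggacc
SOX2: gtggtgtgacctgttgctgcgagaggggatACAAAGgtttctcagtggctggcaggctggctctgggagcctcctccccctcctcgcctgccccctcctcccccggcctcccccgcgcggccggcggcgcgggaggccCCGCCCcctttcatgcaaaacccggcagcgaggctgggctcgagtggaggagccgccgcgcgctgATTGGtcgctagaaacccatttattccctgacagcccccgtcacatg
SOX3: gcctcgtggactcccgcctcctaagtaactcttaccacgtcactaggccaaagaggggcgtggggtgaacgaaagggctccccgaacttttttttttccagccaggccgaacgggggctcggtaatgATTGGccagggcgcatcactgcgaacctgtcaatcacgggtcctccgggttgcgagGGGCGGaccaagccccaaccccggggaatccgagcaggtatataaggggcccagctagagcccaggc
SOX21: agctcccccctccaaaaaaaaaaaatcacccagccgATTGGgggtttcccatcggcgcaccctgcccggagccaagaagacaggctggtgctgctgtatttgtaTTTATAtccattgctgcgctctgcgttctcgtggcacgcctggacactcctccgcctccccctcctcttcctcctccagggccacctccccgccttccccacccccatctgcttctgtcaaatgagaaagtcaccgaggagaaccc

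The SOX1 window held none of these motifs and its GC content was 82%, against a median of 58% over all 35116 promoter windows in the table. The SOX2 window held the SOX motif ACAAAG together with a CCAAT and a GC box, and its GC content was 68.8%. The SOX3 window held a CCAAT box and a GC box, and that of SOX21 a CCAAT box and TATAAA. In windows of the same length over all genes, 13.7% held ACAAAG, 9.29% ACAATG, 1.63% the octamer, 32.0% the CCAAT box, 10.7% TATAAA and 42.6% the GC box. A match is a run of letters and was not tested as a binding site.

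Members of the family moved in opposite directions under BafA1. Relative to control NPC, SOX2, SOX3, SOX4 and SOX11 were higher and SOX1 and SOX9 lower in BafA1 NPC, by 1.26-fold to 1.86-fold in the higher genes, whereas SOX5, SOX6, SOX13 and SOX21 did not pass the test. That made 6 of 10 members called at an adjusted p under 0.05 (edgeR quasi-likelihood test, Benjamini-Hochberg over 20685 genes), beside 41.5% of all genes tested, with 20.8% higher and 20.7% lower. The libraries of both groups did not overlap for 5 of the 10 members, against 49.2% of all genes. Overlap was read in CPM here and below unless FPKM is named. The share of members called is thus not far from that of all genes, and the median log2 fold change was -0.01 in the members and 0.00 over all genes. With libraries scaled by their totals alone, 3 members were higher and 2 lower, and over all genes the split was 3104 higher and 5681 lower, against 4309 and 4277 with TMM. On log2(FPKM + 1) with limma, 3 members were higher and 3 lower, and without the filter on low FPKM 1 was higher and 3 lower.

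**Figure D1:**
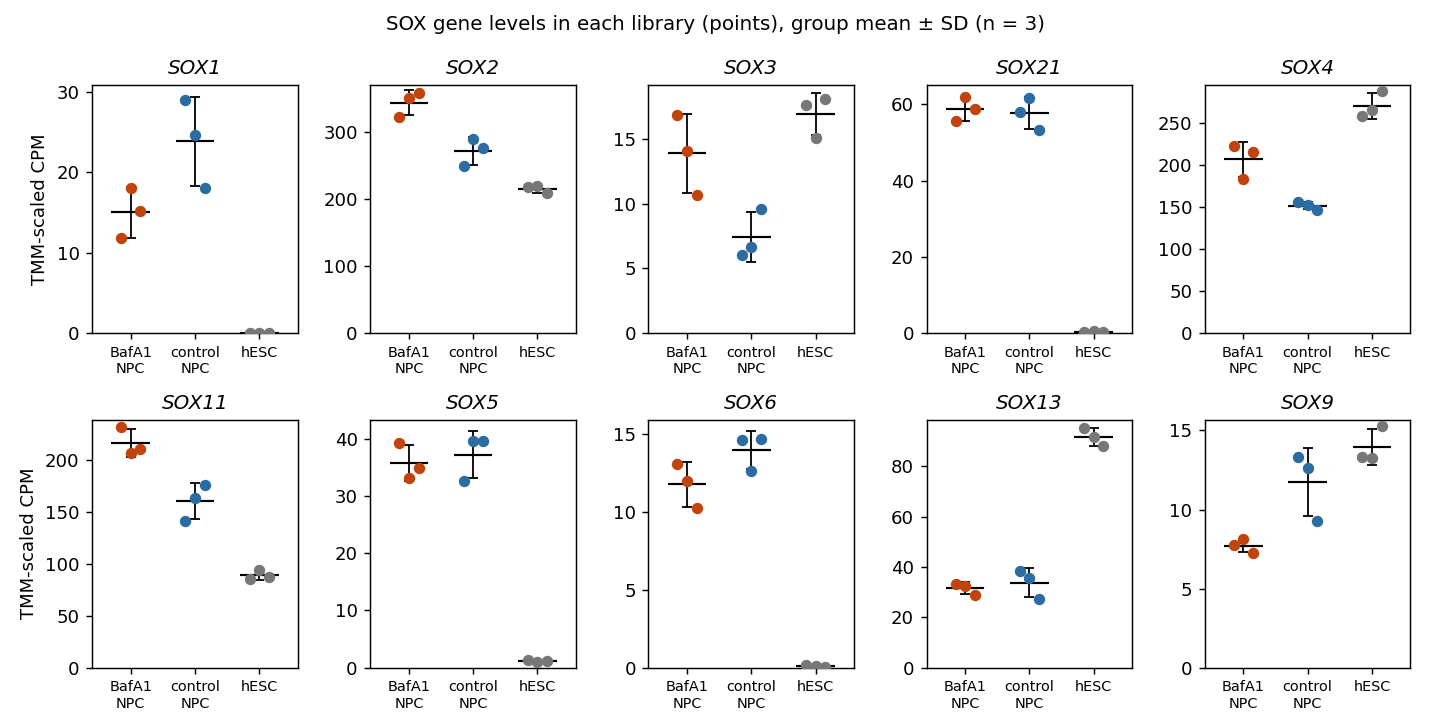
Level of each of the 10 SOX members in every library, as TMM-scaled CPM from 0, with BafA1 NPC left of control NPC and hESC last. Points are libraries, lines are group means and bars are the SD of 3. SOX1, SOX5, SOX6 and SOX21 lie far lower in hESC than in either NPC group, while SOX2, SOX4 and SOX11 stay above 80 CPM in all 9 libraries.

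Between control NPC and hESC the members split into larger classes. SOX1, SOX2, SOX5, SOX6, SOX11 and SOX21 were higher in control NPC, SOX3, SOX4 and SOX13 lower, and SOX9 was not called, so that 9 of 10 members were called beside 64.5% of all genes tested, with 33.0% higher and 31.6% lower. The libraries did not overlap for 9 of 10 members, beside 72.8% of all genes. The same 9 of 10 was reached in BafA1 NPC against hESC, beside 70.4% of all genes tested (35.5% higher and 34.8% lower), with SOX9 called lower and SOX3 not called. Those 9 members did not overlap, beside 74.6% of all genes. The 3 comparisons share groups, so that their values are given side by side and were not compared with each other.

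SOX2 (chromosome 3, 181711925 to 181714436, plus strand, 1 exon), a SOXB1 factor of pluripotent cells and neural progenitors, had the highest level per transcript length (FPKM) of the members in every group, while in CPM SOX4 exceeded it in hESC. It had 322, 351 and 358 CPM in the BafA1 libraries, 250, 291 and 277 CPM in the control libraries and 218, 220 and 209 CPM in hESC. Every BafA1 library lay above every control library, and every control library above every hESC library. The log2 fold change was 0.34 ± 0.09 in BafA1 NPC against control NPC (SE, adjusted p = 0.0089, edgeR) and likewise 0.34 ± 0.09 in control NPC against hESC (adjusted p = 0.0047, edgeR). The step under BafA1 rests on the scaling: scaled by library totals it was 0.21 (adjusted p = 0.0552, edgeR), and on log2(FPKM + 1) it was 0.19 (adjusted p = 0.0836, limma).

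SOX1 (chromosome 13, 112067149 to 112071706, plus strand, 1 exon), a marker of definitive neural progenitors, had 11.8, 18.0 and 15.2 CPM in BafA1 NPC and 28.97, 24.59 and 18.00 CPM in control NPC. In hESC it had 0, 2 and 2 counts. The highest BafA1 library and the lowest control library met at 18.0 CPM, so that the groups overlapped at a single point. In FPKM these groups did not overlap, at no more than 3.03 in BafA1 NPC and no less than 3.50 in control NPC. SOX1 fell by 0.67 ± 0.20 on the log2 scale in BafA1 NPC against control NPC (adjusted p = 0.0202, edgeR). The call did not hold without BafA1 replicate 1 (adjusted p = 0.0709), BafA1 replicate 3 (0.0515), control replicate 1 (0.0889) or control replicate 2 (0.0632). Summed over libraries, SOX1 was 657-fold higher in BafA1 NPC than in hESC (exact 95% counting interval 256 to 2413) and 1056-fold higher in control NPC than in hESC (412 to 3877), ratios that rest on 4 counts in hESC.

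SOX3 (chromosome X, 140502985 to 140505069, minus strand, 1 exon), the remaining SOXB1 factor, moved the other way. It had 16.9, 14.1 and 10.7 CPM in BafA1 NPC, 6.04, 6.65 and 9.64 CPM in control NPC and 17.7, 15.1 and 18.1 CPM in hESC. The BafA1 libraries were all above the control libraries and overlapped those of hESC. SOX3 was 1.86-fold higher in BafA1 NPC than in control NPC, with a log2 fold change of 0.90 ± 0.20 (adjusted p = 0.0035, edgeR). It was lower in control NPC than in hESC, at -1.19 ± 0.20 (adjusted p = 0.0002, edgeR), while BafA1 NPC against hESC gave -0.29 ± 0.19 (adjusted p = 0.199, edgeR).

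**Figure D2:**
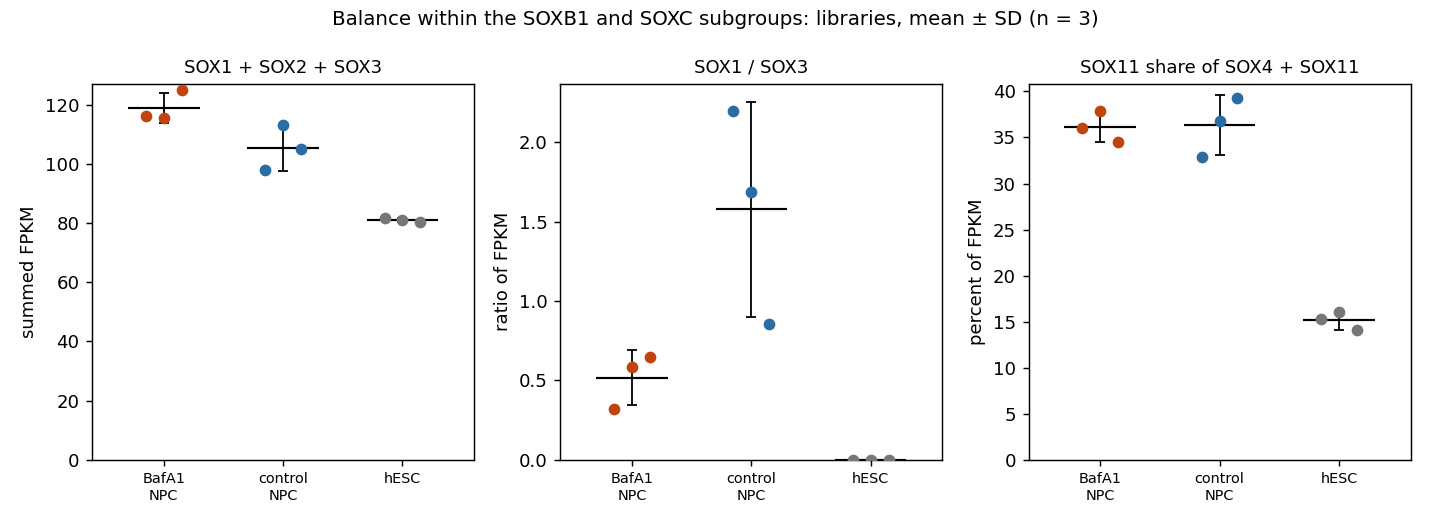
Summed SOXB1 FPKM (SOX1, SOX2 and SOX3), the ratio of SOX1 to SOX3 FPKM and the percentage of SOX11 in the SOX4 and SOX11 FPKM, with BafA1 NPC left of control NPC and hESC. Points are libraries, lines are means and bars are the SD of 3. The ratio of SOX1 to SOX3 FPKM is 0.319 to 0.650 in BafA1 NPC and 0.854 to 2.20 in control NPC, with no overlap. This follows from the FPKM of SOX1 and of SOX3, each of which is separate between these groups.

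Set per transcript length, the ratio of SOX1 to SOX3 was 0.319, 0.583 and 0.650 in BafA1 NPC and 2.20, 1.69 and 0.854 in control NPC (FPKM ratio). In hESC it was 0 to 0.000959. All BafA1 libraries lay below all control libraries, and the exact two-sided permutation test gave p = 0.1, the smallest that 3 libraries against 3 allow. In FPKM, SOX1 and SOX3 were each separate between these groups, in opposite directions. The order of the ratio was thus fixed in advance, and its test adds nothing to the results of the single genes. SOX1 made up 2.23% ± 0.387 of summed SOXB1 FPKM in BafA1 NPC and 4.50% ± 1.27 in control NPC (SD, n = 3 each, exact permutation p = 0.1). The order of this share was likewise fixed, by lower SOX1 and a higher SOXB1 sum. SOX3 made up 4.57% ± 1.21 in BafA1 NPC and 3.04% ± 0.741 in control NPC, and these libraries overlapped (SD, n = 3 each, exact permutation p = 0.2). The SOXB1 sum itself was 119 ± 5.22 FPKM in BafA1 NPC, 105 ± 7.73 in control NPC and 81.1 ± 0.651 in hESC (SD, n = 3 each). These 3 groups did not overlap, and each pair gave an exact permutation p = 0.1, the smallest possible. SOX2 alone supplied most of the sum, which therefore follows it.

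SOX21 (chromosome 13, 94709622 to 94712545, minus strand, 1 exon), the SOXB2 factor that acts against SOXB1 targets, differed most between control NPC and hESC among the members with more than 4 counts over the hESC libraries. It had 55.6, 62.0 and 58.8 CPM in BafA1 NPC, 58.1, 61.6 and 53.4 CPM in control NPC and 0.22, 0.44 and 0.26 CPM in hESC. The NPC groups overlapped throughout, and both lay above all hESC libraries. BafA1 NPC against control NPC gave a log2 fold change of 0.03 ± 0.11 (adjusted p = 0.867, edgeR), and control NPC against hESC gave 7.58 ± 0.17 (adjusted p = 2.24e-11, edgeR). The divergent noncoding gene SOX21-AS1 starts 171 bases from the SOX21 start on the opposite strand, inside the SOX21 window printed above. SOX21-AS1 had 23.9, 23.9 and 26.6 CPM in BafA1 NPC, 29.2, 31.5 and 27.4 CPM in control NPC and 0.25, 0.26 and 0.41 CPM in hESC. Every BafA1 library was below every control library, yet the log2 fold change of -0.24 ± 0.11 did not pass the test (adjusted p = 0.105, edgeR). SOX21-AS1 was called lower with libraries scaled by their totals (-0.37, adjusted p = 0.0215, edgeR) and in all 3 settings of limma on FPKM (adjusted p = 0.0092 to 0.0466). In control NPC against hESC it was 6.59 ± 0.17 (adjusted p = 3.92e-11, edgeR).

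SOX4 (chromosome 6, 21593751 to 21598619, plus strand, 1 exon), a SOXC factor of neuronal differentiation that is also broadly expressed, had 223, 183 and 215 CPM in BafA1 NPC, 156, 152 and 147 CPM in control NPC and 258, 265 and 289 CPM in hESC. The 3 groups did not overlap in CPM, and BafA1 NPC stood between control NPC and hESC. In FPKM the lowest BafA1 library, at 28.91, was just below the highest control library, at 28.92. The log2 fold change was 0.45 ± 0.09 in BafA1 NPC against control NPC (adjusted p = 0.0025, edgeR) and -0.83 ± 0.09 in control NPC against hESC (adjusted p = 7.52e-06, edgeR). SOX11 (chromosome 2, 5692384 to 5701385, plus strand, 1 exon), its closest relative among the members and likewise a factor of immature neurons, had 231, 207 and 210 CPM in BafA1 NPC, 141, 164 and 176 CPM in control NPC and 85.9, 94.1 and 87.4 CPM in hESC. Its groups did not overlap either, with BafA1 NPC highest. SOX11 gave 0.43 ± 0.10 in BafA1 NPC against control NPC (adjusted p = 0.0038, edgeR) and 0.85 ± 0.10 in control NPC against hESC (adjusted p = 8.77e-06, edgeR). SOX4 and SOX11 thus moved together under BafA1 and in opposite directions between control NPC and hESC.

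The share of SOX11 in the summed FPKM of SOX4 and SOX11 followed that pattern. It was 36.2% ± 1.69 in BafA1 NPC and 36.3% ± 3.26 in control NPC, which overlapped (SD, n = 3 each, exact permutation p = 1), and 15.1% ± 1.01 in hESC. Their summed FPKM was 54.1 ± 6.81 in BafA1 NPC, above 44.1 ± 1.01 in control NPC without overlap (SD, n = 3 each, exact permutation p = 0.1, the smallest possible). Both calls under BafA1 held in all alternatives but limma on log2(FPKM + 1) without a filter, which gave an adjusted p of 0.0923 for SOX4 and 0.0720 for SOX11.

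**Figure D3:**
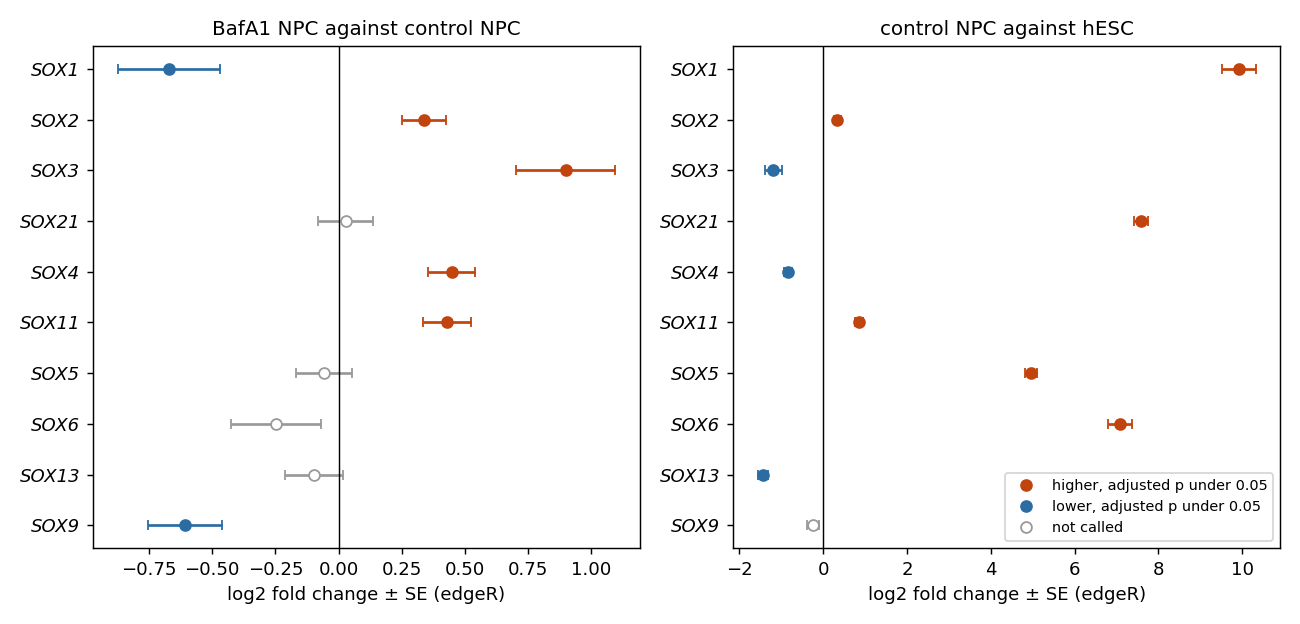
Log2 fold changes of the 10 members in BafA1 NPC against control NPC and in control NPC against hESC, from edgeR, with bars of 1 SE, filled points for called genes and open points for genes not called. In BafA1 NPC against control NPC, SOX3 is farthest above 0 at 0.90 and SOX1 farthest below at -0.67.

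The SOXD factors lack a transactivation domain, and SOX5 and SOX6 act with SOX9 on cartilage genes and time cell fate in the nervous system. None of these 3 genes was called under BafA1. SOX5 (chromosome 12, 23529504 to 24562650, minus strand) had 39.2, 33.1 and 34.9 CPM in BafA1 NPC, 32.5, 39.5 and 39.6 CPM in control NPC and 1.29, 1.01 and 1.26 CPM in hESC. The NPC groups overlapped, at a log2 fold change of -0.06 ± 0.11 (adjusted p = 0.708, edgeR), and stood far above hESC, at 4.96 ± 0.14 for control NPC (adjusted p = 7.50e-11, edgeR). SOX6 (chromosome 11, 15966449 to 16738477, minus strand) had 13.1, 12.0 and 10.2 CPM in BafA1 NPC and 14.6, 12.6 and 14.7 CPM in control NPC. The groups overlapped, at -0.25 ± 0.18 (adjusted p = 0.284, edgeR), and on log2(FPKM + 1) SOX6 was called lower, at -0.22 (adjusted p = 0.0325, limma). SOX6 had 10, 6 and 2 counts in hESC, which made it 115-fold higher in BafA1 NPC (exact 95% counting interval 72.7 to 195) and 138-fold higher in control NPC (86.9 to 233).

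SOX13 (chromosome 1, 204073115 to 204127743, plus strand) was the SOXD gene of hESC. It had 33.5, 32.3 and 29.1 CPM in BafA1 NPC, 38.5, 35.5 and 27.5 CPM in control NPC and 95.1, 91.8 and 88.1 CPM in hESC. The NPC groups overlapped, at -0.10 ± 0.12 (adjusted p = 0.525, edgeR), and all NPC libraries lay below all hESC libraries, at -1.44 ± 0.12 for control NPC (adjusted p = 4.58e-07, edgeR). Per transcript length the SOXD sum was 11.3 ± 1.11 FPKM in BafA1 NPC, 13.5 ± 0.984 in control NPC and 19.8 ± 0.482 in hESC. The NPC groups overlapped in this sum (exact permutation p = 0.2), and both lay below hESC without overlap. SOX5 and SOX6 being nearly silent in hESC, the SOXD sum there was almost wholly SOX13.

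The ratio of deposited count to FPKM of SOX5 was higher in hESC than in NPC. This ratio, which follows the transcript length used for a gene, set to the control NPC mean and to 1639 genes with a single transcript, was 0.993 to 1.01 in BafA1 NPC and 0.991 to 1.01 in control NPC. In hESC it was 1.45, 1.60 and 1.46, on 55 to 84 counts a library. SOX5 has 43 transcripts listed in the deposited annotation. The sources used here do not give how reads were assigned among them, and no transcript was measured.

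SOX9 (chromosome 17, 72121020 to 72126416, plus strand, 3 exons), the SOXE member, is a factor of neural stem cells, glia and cartilage. It had 7.77, 8.11 and 7.26 CPM in BafA1 NPC, 13.3, 12.7 and 9.29 CPM in control NPC and 13.4, 13.3 and 15.3 CPM in hESC. All BafA1 libraries lay below all control and hESC libraries. SOX9 fell by 0.61 ± 0.15 on the log2 scale in BafA1 NPC against control NPC (adjusted p = 0.0059, edgeR). It was not called in control NPC against hESC, at -0.25 ± 0.14 (adjusted p = 0.147, edgeR), and was lower in BafA1 NPC than in hESC, at -0.86 ± 0.15 (adjusted p = 0.0002, edgeR). SOX3 and SOX9 kept their calls under BafA1 in all 21 alternatives, in which the log2 fold change was 0.61 to 1.13 for SOX3 and -0.75 to -0.50 for SOX9.

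Markers of cell types in which SOX9 is known to act were called in shares near or below the 41.5% of all genes called. The glial and the chondrocyte and mesenchyme lists held calls in both directions, and the neural crest list held higher ones alone. Of 7 glial markers, AQP4, a water channel of astrocytes, and OLIG2, a factor of oligodendrocyte lineage, were higher in BafA1 NPC than in control NPC. Both were low, AQP4 at means of 3.26 CPM in BafA1 NPC, 0.748 in control NPC and 1.11 in hESC, and OLIG2 at 3.70, 1.57 and 5.32 CPM. SLC1A3, the glutamate transporter of radial glia, was lower, at 22.7 ± 2.32 CPM in BafA1 NPC against 48.8 ± 8.32 CPM in control NPC (SD, n = 3 each). The summed level of the 7 glial markers was 42.3 to 51.5 CPM in BafA1 NPC, 68.3 to 81.1 in control NPC and 61.9 to 64.5 in hESC. Of 7 chondrocyte and mesenchyme markers, COL1A1 was higher and COL2A1 and PRRX1 lower, and ACAN was at most 0.14 CPM in BafA1 NPC and 0.53 in control NPC. Their sum was 2268 to 2467 CPM in BafA1 NPC, 1452 to 2194 in control NPC and 76.2 to 81.4 in hESC. COL1A1 made up most of it, at means of 1963 CPM in BafA1 NPC, 1211 in control NPC and 70.2 in hESC. Of 8 neural crest markers tested, NGFR and SOX10 were higher, the SOX10 call resting on 15 counts over the BafA1 libraries. FOXD3 had no count in either NPC group, and the sum of the neural crest list was 50.6 to 66.4 CPM in BafA1 NPC, 30.8 to 36.9 in control NPC and 144 to 160 in hESC. The part of these markers in the SOX9 and SOX3 differences was not tested.

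Other marker lists held called genes beside the same 41.5% of all genes, and no list was tested as a whole. Of 6 neural progenitor markers, PAX6, HES5, VIM and CDH2 were higher and none lower, with a sum of 9224 to 12099 CPM in BafA1 NPC, 6110 to 6833 in control NPC and 416 to 467 in hESC. The CDH2 call was at the edge of the threshold (adjusted p = 0.0499, edgeR), and its BafA1 and control libraries overlapped. PAX6 and HES5 were low, at means of 1.04 and 1.73 CPM in BafA1 NPC and 0.380 CPM each in control NPC. VIM, most of the sum in both NPC groups, averaged 9575 CPM in BafA1 NPC, 5102 in control NPC and 85.2 in hESC. Of 6 pluripotency markers LIN28A was higher and DPPA4 lower, with a sum of 810 to 887 CPM in BafA1 NPC, 579 to 638 in control NPC and 4538 to 4813 in hESC. LIN28A made up most of that sum in both NPC groups, at means of 786 CPM in BafA1 NPC and 537 in control NPC. POU5F1 and TDGF1 were at or near 0 in both NPC groups. Of 6 floor plate markers FOXA2 and SPON1 were higher and LMX1B lower, summing to 555 to 790 CPM in BafA1 NPC, 384 to 710 in control NPC and 60.8 to 68.4 in hESC. Of 6 neuron markers ELAVL3 alone was called, higher, and the sum was 587 to 641 CPM in BafA1 NPC, 578 to 623 in control NPC and 190 to 210 in hESC. CXCR4, higher in BafA1 NPC, made up most of the endoderm list, which summed to 192 to 260 CPM in BafA1 NPC, 67.2 to 121 in control NPC and 8.80 to 10.1 in hESC, while SOX17 and GATA4 were at or near 0. The part of these lists in the SOX differences was not tested.

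**Figure D4:**
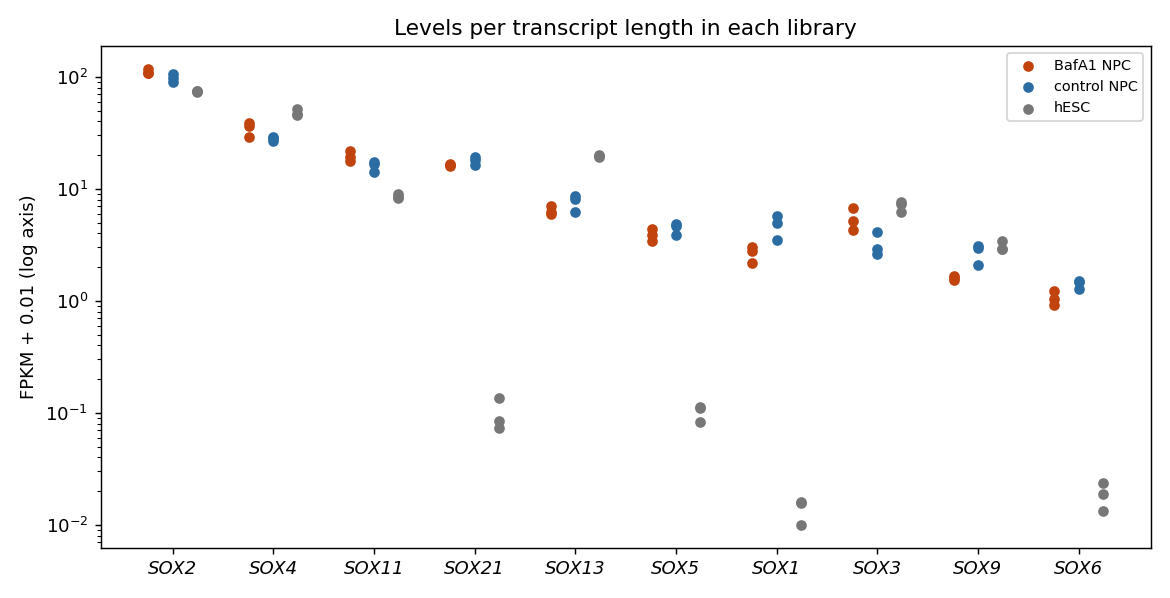
Level per transcript length of the 10 members in each group, as FPKM + 0.01 on a log axis, with BafA1 NPC left of control NPC and hESC. Points are libraries. SOX2 is highest and SOX4 second in every group, and SOX1, SOX5, SOX6 and SOX21 are below 0.15 FPKM in hESC.

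Per transcript length the order of the members changed mostly between hESC and NPC. In BafA1 NPC the order was SOX2 (111 ± 6.11 FPKM), SOX4 (34.6 ± 5.00), SOX11 (19.5 ± 1.95), SOX21 (16.3 ± 0.351), SOX13 (6.39 ± 0.557), SOX3 (5.41 ± 1.27), SOX5 (3.87 ± 0.470), SOX1 (2.65 ± 0.448), SOX9 (1.59 ± 0.0650) and SOX6 (1.06 ± 0.156). Libraries of SOX13 and SOX3, and of SOX3 and SOX5, overlapped. In control NPC it was SOX2 (97.5 ± 7.97 FPKM), SOX4 (28.1 ± 1.13), SOX21 (17.8 ± 1.53), SOX11 (16.0 ± 1.67), SOX13 (7.62 ± 1.25), SOX1 (4.71 ± 1.13), SOX5 (4.46 ± 0.531), SOX3 (3.20 ± 0.786), SOX9 (2.69 ± 0.524) and SOX6 (1.40 ± 0.119). SOX21 and SOX11 overlapped there, as did each neighbour from SOX1 to SOX9. In hESC the order was SOX2 (74.1 ± 1.08 FPKM), SOX4 (48.1 ± 3.43), SOX13 (19.7 ± 0.470), SOX11 (8.54 ± 0.368), SOX3 (7.02 ± 0.732) and SOX9 (3.07 ± 0.292), with the other 4 below 0.15 FPKM and no overlap between neighbours among the first 6. SOX2 supplied 54.9% of the members' summed FPKM in BafA1 NPC, 53.1% in control NPC and 46.1% in hESC.

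Some members share their locus with a noncoding gene. SOX2 lies wholly within SOX2-OT on the same strand, and SOX1 wholly within SOX1-OT, so that reads could be split between them in the counting and their counts are uncertain to that extent. SOX2-OT had 12.0, 11.6 and 8.55 CPM in BafA1 NPC, 10.1, 12.1 and 11.8 CPM in control NPC and 3.62, 3.96 and 2.80 CPM in hESC. Its NPC groups overlapped, at -0.08 ± 0.17 (adjusted p = 0.744, edgeR), and control NPC was above hESC at 1.71 ± 0.18 (adjusted p = 4.16e-06, edgeR). SOX1-OT averaged 1.10 ± 0.256 CPM in BafA1 NPC and 1.06 ± 0.307 in control NPC (SD, n = 3 each) and had no count in hESC, which made it at least 21.6-fold higher in BafA1 NPC and at least 20.9-fold higher in control NPC (against 3 counts per library). SOX9-AS1, on the opposite strand 227 bases from SOX9, averaged 0.221 ± 0.0512 CPM in BafA1 NPC, 0.254 ± 0.0621 in control NPC and 0.754 ± 0.256 in hESC. SOX5-AS1, which lies antisense within SOX5, had no count in any library. Of the 4 noncoding genes tested, none was called in BafA1 NPC against control NPC with TMM scaling, beside 41.5% of all genes. SOX21-AS1 was called lower in the 4 settings given above. In control NPC against hESC 3 of the noncoding genes were higher and 1 lower, beside 33.0% and 31.6% of all genes.

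**Figure D5:**
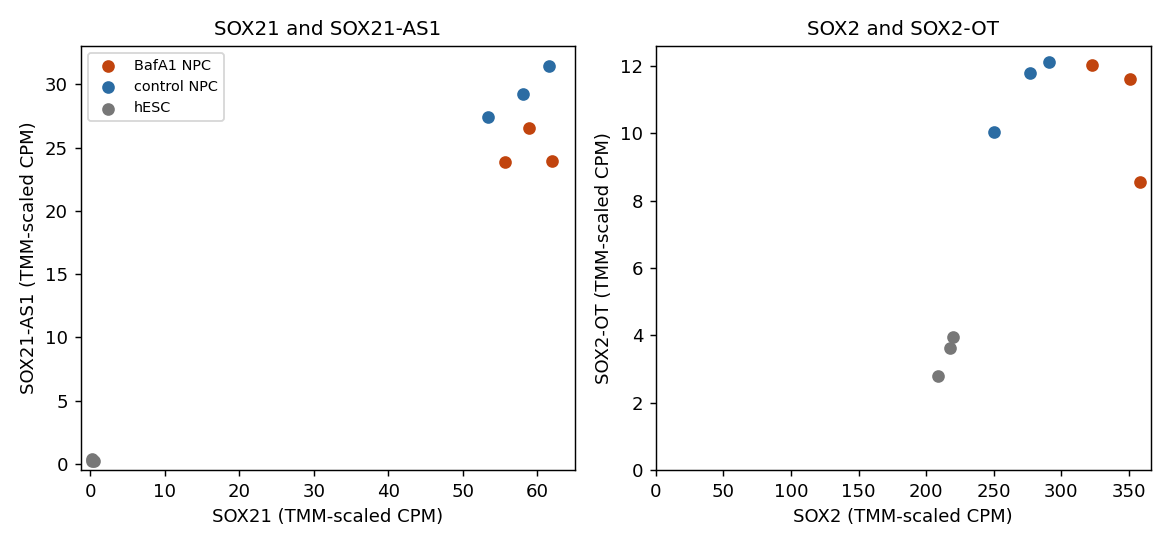
SOX21-AS1 against SOX21, and SOX2-OT against SOX2, with each point a library and both axes in TMM-scaled CPM, coloured by group. The BafA1 libraries of SOX21-AS1 lie at 23.9 to 26.6 CPM, below the control libraries at 27.4 to 31.5 CPM, whereas those of SOX21 overlap.

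Partner factors and genes known to depend on SOX proteins were read beside the members. Their counts stand beside 41.5% of all genes called in BafA1 NPC against control NPC (20.8% higher and 20.7% lower). In control NPC against hESC that share was 64.5%, with 33.0% higher and 31.6% lower. No list was tested as a whole. Of 7 POU and PAX partners, POU3F1 and PAX6 were higher and POU3F2 and POU3F4 lower in BafA1 NPC, with a median log2 fold change of 0.26 against 0.00 over all genes. POU3F1, a POU factor of early neural fate, averaged 46.1 ± 3.78 CPM in BafA1 NPC and 20.1 ± 2.32 CPM in control NPC (SD, n = 3 each), with a log2 fold change of 1.19 ± 0.12 (adjusted p = 3.12e-05, edgeR). Its mean was highest in hESC, at 56.2 ± 7.35 CPM (SD, n = 3), and both NPC groups were called lower than hESC. POU3F2, a partner of SOXB1 factors in neural cells, had 92.7, 102 and 105 CPM in BafA1 NPC and 182, 176 and 121 CPM in control NPC, without overlap, at -0.68 ± 0.14 (adjusted p = 0.0026, edgeR). Of 7 tested genes bound jointly by SOX2 and POU5F1 in pluripotent cells, 1 was higher and 1 lower under BafA1 (ZFP42 and DPPA4), and all 7 were lower in control NPC than in hESC. ZFP42 was low and its NPC libraries overlapped, at means of 1.06 CPM in BafA1 NPC, 0.646 in control NPC and 186 in hESC. POU5F1, UTF1, LEFTY1, NANOG and TDGF1 averaged no more than 0.23 CPM in either NPC group, so that a call under BafA1 was hardly possible.

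Of 10 neural genes tied to SOXB1 factors, HES5, NOTCH1 and JAG1, parts of the Notch pathway, were higher in BafA1 NPC and PROM1 and GLI2 lower, with a median of -0.15. JAG1, a Notch ligand, had 122, 121 and 131 CPM in BafA1 NPC and 71.6, 63.3 and 56.9 CPM in control NPC, without overlap, at 0.96 ± 0.10 (adjusted p = 3.91e-05, edgeR). PROM1, a surface protein of progenitors, had 26.3, 25.0 and 22.4 CPM in BafA1 NPC and 56.8, 55.2 and 51.3 CPM in control NPC, at -1.15 ± 0.09. HES5 was low, at 1.73 ± 1.26 CPM in BafA1 NPC and 0.380 ± 0.268 CPM in control NPC (SD, n = 3 each). In control NPC against hESC 6 of these 10 were higher and 4 lower, beside 33.0% and 31.6% of all genes.

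Of 6 genes tied to SOXC factors, NHLH1, a factor of newborn neurons, was higher in BafA1 NPC at 1.04 ± 0.29, and TEAD2, a factor of the Hippo pathway, lower at -0.83 ± 0.09. The neuronal genes TUBB3, DCX, MAP2 and STMN2 were not called, and the median was -0.01, with SOX4 and SOX11 both higher. Of 10 cartilage genes tied to SOX5, SOX6 and SOX9, COL9A3, COL11A1 and COMP were higher and COL2A1 and HAPLN1 lower, with a median of 0.23. COL2A1, the main cartilage collagen and a direct SOX9 target in cartilage, had 348, 300 and 270 CPM in BafA1 NPC and 424, 363 and 416 CPM in control NPC, without overlap, at -0.39 ± 0.12 (adjusted p = 0.0196, edgeR). In control NPC against hESC, 5 of the 6 SOXC genes were higher and 1 lower. Of the 10 cartilage genes, 4 were higher and 3 lower, beside 33.0% and 31.6% of all genes.

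Genes with the pattern nearest to each member were ranked over the 9 libraries among 11758 protein-coding genes, by the root mean square difference in centred log2(CPM + 1). Nearest to SOX1 were ATOH8 (0.17), ADAMTS18 (0.21) and FILIP1L (0.23), and no other gene came within 0.25. Nearest to SOX21 were PLAGL1 (0.12), DACH1 (0.18) and LIX1 (0.20), with 9 genes within 0.25. PKNOX2, KIAA0895 and TNFRSF19 were nearest to SOX5, which had 17 genes within 0.25, and DCLK2, MSRB3 and WNT2B to SOX6, which had 27. SOX3 had 42 such genes, led by PLA2G6, LTBP4 and BAMBI. The patterns of the remaining members were common ones, with 327 genes within 0.25 of SOX13, 790 of SOX11, 1045 of SOX4, 1797 of SOX9 and 2338 of SOX2. PNPLA2, TTLL12 and CLUH led for SOX13, DAAM1, INTU and CBLB for SOX11, ATG9A, UBE4B and USP28 for SOX4, FAM102A, PCBD2 and TMEM203 for SOX9, and GALT, ZNF692 and GIN1 for SOX2. The distances share the same libraries and depth, and were not tested.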

How the data were processed

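Per the labels' protocols, a stranded mRNA kit was used on total RNA. Per the submitters' processing notes, reads were trimmed with Trimmomatic and the build was GRCh38. The sources used here do not give the aligner, the counting tool or its use of strand. Whole-number raw counts per gene, not normalised, were deposited by the authors, who gave FPKM values of each gene as well, per the file headers. Columns were matched to samples by name, and 0 columns of other samples were present.

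Counts were tested with edgeR 4.0.16 in R 4.3.3 (TMM, filterByExpr, 20685 genes, quasi-likelihood fit with 1 term per group over 9 libraries, two-sided, Benjamini-Hochberg). FPKM shares were tested by exact permutation, and limma 3.58.1 on log2(FPKM + 1), with FPKM of at least 0.5 in 3 libraries, and DESeq2 1.42.0 were alternatives. The log2(FPKM + 1) scale understates changes of low genes. The edgeR script was tested on simulated data. The rule for members is by gene symbol alone, but the members, gene lists and alternatives were chosen with earlier results of these data known. All 10 members are named whatever their result, and for each the 3 genes of nearest pattern with a mean of at least 5 CPM. Coordinates and promoters are 1-based, from RefSeq on GRCh38.p14, and 8 of 10 members had a promoter entry. No library was a copy of another (chi-square between replicates 11.3 to 75.4 for each degree of freedom). Counting intervals and floors cover counting error only.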

Additional observations from a re-analysis of the deposited data

How the results depend on the processing

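Under 21 alternatives each (another scaling or tool, other filters, FPKM with limma, offsets for GC and length, the replicate block, each library left out), the number of members called was 4 to 6 in BafA1 NPC against control NPC and 9 in both comparisons with hESC. In those with hESC every member kept its direction and call. For BafA1 NPC against control NPC the counts over all genes were 6519 to 8990. With libraries scaled by their totals the median log2 fold change of all genes was -0.12, against 0.00 with TMM, and in control NPC against hESC it was 0.14, against 0.03.

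Some log2 values changed sign. In BafA1 NPC against control NPC, SOX21 had -0.10 with library totals, -0.12 with limma on FPKM under either pseudocount or without a filter, -0.043 with GC and length trends removed and -0.041 with the replicate block added. SOX5 had 0.079 with these trends removed and 0.080 with the block added, and SOX2-OT had 0.067 and 0.044. In control NPC against hESC, SOX12, called lower at -0.25 with TMM, had 0.0147 with the trends removed and 0.0164 with the block added, and SOX8 had 0.15 and 0.13. Leaving out single libraries, BafA1 NPC against control NPC gave -0.027 to 0.076 for SOX21, -0.23 to 0.0031 for SOX13, -0.16 to 0.062 for SOX2-OT and -0.074 to 0.055 for the log2 ratio of the SOX11 share. The cause was not tested.

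Replicate numbers were not taken to pair the samples, since not every same-numbered pair correlated above 0.1: r was -0.045 to 0.024 between BafA1 and control NPC, 0.049 to 0.173 between control NPC and hESC, and -0.048 to 0.158 between BafA1 NPC and hESC. Each control library correlated best with the hESC library of its number, but hESC replicate 2 correlated best with control replicate 1, so that this is at most a hint from the data. With the replicate block 6 members were called in BafA1 NPC against control NPC and 9 in each comparison with hESC.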

Other observations

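Among the other SOX genes, SOX12, the third SOXC factor, was as abundant as several members and was not called under BafA1. It had 105, 93.2 and 82.6 CPM in BafA1 NPC, 109, 109 and 93.5 CPM in control NPC and 132, 123 and 115 CPM in hESC, with a log2 fold change of -0.15 ± 0.10 in BafA1 NPC against control NPC (adjusted p = 0.268, edgeR). It was called lower with limma on filtered FPKM and with GC and length trends removed (adjusted p = 0.0112 to 0.0434). In control NPC against hESC it was called lower, at -0.25 ± 0.10 (adjusted p = 0.0498, edgeR), and of 21 alternatives 12 lost the call and another 2 turned the sign. SOX8, a SOXE factor like SOX9, had 10.6, 10.5 and 14.2 CPM in BafA1 NPC and 7.87, 7.04 and 10.2 CPM in control NPC. Its log2 fold change was 0.49 ± 0.18 (adjusted p = 0.0432, edgeR), opposite in sign to SOX9, but the call was lost in 13 of 21 alternatives. SOX10, the SOXE factor of neural crest and oligodendrocytes, had 130, 96 and 124 counts in hESC and none in control NPC, which made it at least 36.5-fold lower in control NPC (against 3 counts per library). In BafA1 NPC it had 0, 7 and 8 counts and was called higher than in control NPC (adjusted p = 0.0195, edgeR), a call that rests on 15 counts in 2 libraries.

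SOX7, a SOXF factor of endothelium and endoderm, was low throughout, at 0.620 ± 0.174 CPM in BafA1 NPC, 0.683 ± 0.154 in control NPC and 1.19 ± 0.0788 in hESC (SD, n = 3 each). SOX30 had 25 counts over the BafA1 libraries, 34 over the control libraries and 3 over hESC. SOX15 was below 1 CPM on average in all groups and was called in none of the comparisons. SOX14, SOX17 and SOX18 had at most 4 counts over any group and were not tested.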
